A study of Oryza sativa with 12 samples.

Results

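The response of the introgression line IL22 to salt was measured by RNA-Seq as the comparison of 3 leaf libraries from salt-treated plants with 3 leaf libraries from untreated plants of the same line. These 6 libraries were chosen by their labelled genotype and condition from the 12 libraries of the series, and all 20760 features with enough counts entered the test. IL22 carries segments of the salt tolerant *indica* variety FL478, mainly on Chromosomes 1 and 3 and including the *Saltol* region, in the background of the salt-sensitive *japonica* cultivar OLESA. Seedlings were grown in hydroponic culture. NaCl was given at 80 mM over 24 h to the treated plants of both lines and withheld from the controls, and each library holds the pooled leaves of 4 plants. The other 6 libraries come from the parent under the same 2 conditions, with 3 libraries in each. Their label is PL12, which was taken to be OLESA, the only parent in the RNA-Seq design of the study. IL22 is a single line selected for performance under salt, so its values describe this line and not the introgressed segments as such. In pooled leaves, fewer cells of a type and less RNA per cell cannot be told apart.

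Salt reaches a leaf first as an osmotic stress and then through the accumulation of Na+. In rice, both are answered through abscisic acid signaling, in which SnRK2 protein kinases activate bZIP transcription factors and with them genes for LEA proteins, dehydrins and the synthesis of osmolytes, while HKT and NHX transporters keep Na+ away from the cytosol of leaf cells. The counts are listed by rice locus ID only, and the gene reference at hand is of another genome build and pairs 1 of the 36844 IDs with a name. The genes of these pathways, and the markers that would check the tissue as leaf, could therefore not be picked out. The response is described below by its size, its stability over libraries, its place on the chromosomes and 4 IDs without names.

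The IL22 libraries held 11505396 to 20034664 counts, and 1 control library stood apart. The 3 salt libraries were close to each other, with Pearson correlations of log2 CPM (each library's counts on a common scale, CPM, normalized by TMM) of 0.974 to 0.981 across tested features. IL22 control replicates 2 and 3 correlated at 0.966. IL22 control replicate 1 correlated at 0.942 and 0.937 with these other controls, lower than its correlations with the OLESA controls (0.954 to 0.965) and within the range of those with the IL22 salt libraries (0.937 to 0.95). Features that differed by more than 1 on the log2 scale made up 19.7% and 20.5% of those tested between replicate 1 and the other controls, against 10.1% between replicates 2 and 3 and 4.91% to 7.51% among the salt libraries. The median SD of log2 CPM was 0.36 in the control group, 0.19 in it without replicate 1, and 0.178 in the salt group.

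In its genotype, replicate 1 went with its label. With replicate 1 not used in the choice, 8 features had no count in any of the 6 OLESA libraries and at least 10 counts in each of the other 5 IL22 libraries. All 8 had counts in replicate 1, from 24 to 517. Another 36 features showed the reverse pattern, and 34 of them had no count in replicate 1, with a highest count of 2 in the others. In the plot of principal components over 12 libraries, replicate 1 lay beside the OLESA controls on the first component (-62.1, against -40.1 to -61.4), which also separated control from salt. IL22 control replicates 2 and 3 were set apart from the other 10 libraries on the second component (-79.5 and -74.9, against -6.04 to 45.2). The labels give no date, tank or batch, so a technical difference and a difference between plants cannot be told apart, and either replicate 1 or the pair of replicates 2 and 3 could be the unusual side. The main counts are therefore given with and without replicate 1.

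**Figure D1:**
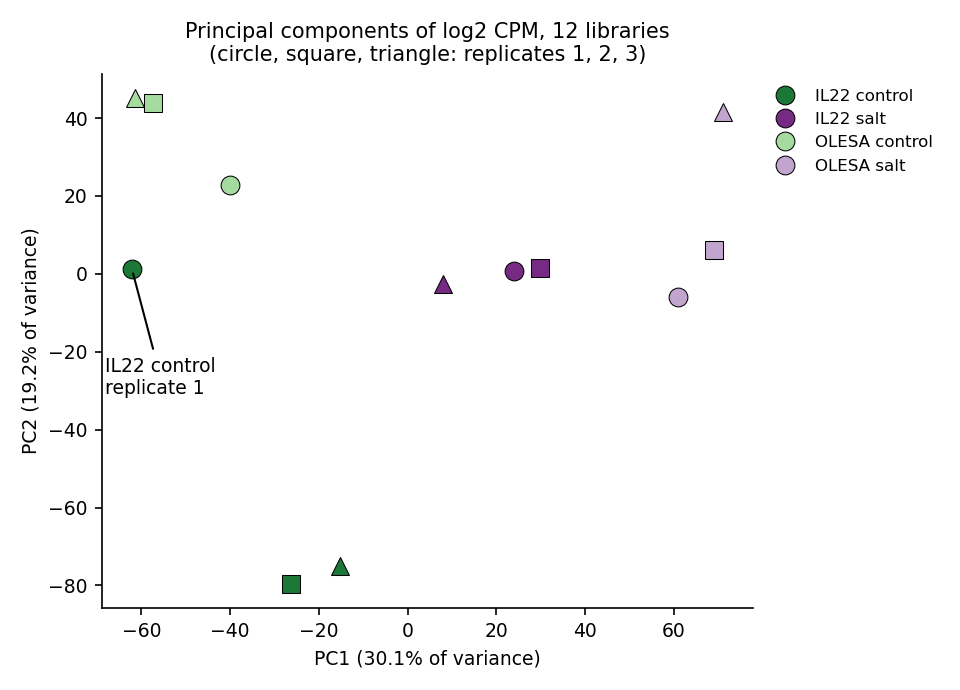
First and second principal components of log2 CPM (normalized by TMM) in 12 libraries, in component scores, with colours for the 4 groups of 3 and shapes for the replicate number. IL22 control replicate 1 lies at -62.1 on the first component, next to the OLESA controls, and at 1.16 on the second component, level with the IL22 salt libraries (-2.72 to 1.64), while IL22 control replicates 2 and 3 lie at -79.5 and -74.9.

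Salt changed the leaf transcriptome of IL22 in both directions. With all libraries, 1074 differentially expressed genes (DEGs) were called in salt-treated IL22, at a Benjamini-Hochberg adjusted p of 0.05 or less from edgeR's quasi-likelihood test and a log2 fold change (FC) beyond 0.5. They are 5.17% of the features tested. Of these, 607 were up-regulated (2.92%) and 467 were down-regulated (2.25%). At an unadjusted p of 0.05 or less and the same log2 FC, 3729 features passed (18.0%), 1690 of them higher and 2039 lower in salt.

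With all libraries, more of the up-regulated than of the down-regulated DEGs changed by a large factor. Up-regulated DEGs had a median log2 FC of 1.47 and a highest value of 9.43, and 215 of the 607 (35.4%) exceeded 2, which is a fold change of 4. Down-regulated DEGs had a median log2 FC of -1.16 and a lowest value of -6.4, and 62 of the 467 (13.3%) were beyond -2. Over all tested features, the median log2 FC was -0.03. Without IL22 control replicate 1, the medians were of like size, at 1.07 for up-regulated and -1.11 for down-regulated DEGs, and 294 of the former and 197 of the latter were beyond 2 on the log2 scale in their direction. All 3 salt libraries lay above all 3 controls in 606 of the 607 up-regulated DEGs, and this held for 14.2% of all tested features. All 3 lay below in 457 of the 467 down-regulated DEGs, against 12.2% of all tested features. These shares follow in part from the test that chose the DEGs. Without replicate 1, 1355 of 1355 up-regulated and 1768 of 1770 down-regulated DEGs did not overlap, against 28% and 27.2% of all features.

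The DEGs also included features with no count at all on 1 side. Of the up-regulated DEGs, 8 had no count in the 3 IL22 control libraries and 27 to 250 counts over the salt libraries. Taking 3 counts over the control group as the floor, they were at least 8.83-fold to at least 81.7-fold higher in salt, counting error only. A single DEG had no count in salt and 31 counts in control, and was at least 10.5-fold lower. Of the 8 up-regulated DEGs, 2 were also called in each fit that leaves out 1 IL22 library, and the single down-regulated DEG was not. The share of all tested features without a count in a group is not given here, so no comparison is drawn. Without control replicate 1, 35 up-regulated DEGs had no count in control and 2 down-regulated DEGs had none in salt.

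The DEGs depended on which libraries were compared. IL22 control replicate 1 was the only IL22 library whose removal raised the number of DEGs. Without it, the fit called 3125 DEGs, 14.7% of 21213 tested features, with 1355 up-regulated and 1770 down-regulated. The share of up-regulated DEGs was 56.5% with replicate 1 and 43.4% without it. Without IL22 control replicate 2, 406 DEGs were called, and without replicate 3, 558. Without IL22 salt replicates 1, 2 and 3, the counts were 348, 424 and 606. Of the 1074 DEGs called with all libraries, 1024 (95.3%) were called again without control replicate 1, 582 up and 442 down, while 397 (37%) were called again without control replicate 2 and 345 (32.1%) without salt replicate 1. No DEG was called in the opposite direction in any of these fits. With replicate 1 as the only control, a fit added after the data were examined, 285 DEGs were called, 134 up-regulated and 151 down-regulated.

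**Figure D2:**
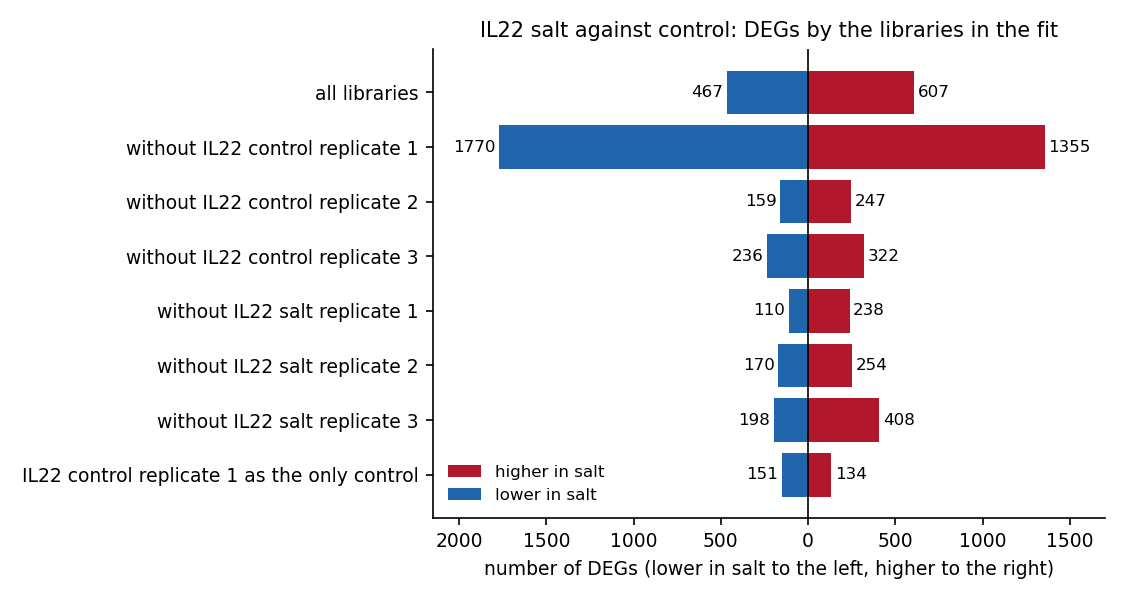
Number of DEGs in salt-treated against control IL22 (horizontal axis, up-regulated to the right and down-regulated to the left) by the libraries in the fit, where each bar is a count from 1 fit. The bar without IL22 control replicate 1 reaches 1355 up-regulated and 1770 down-regulated DEGs, and the bars without 1 other IL22 library each have 408 or fewer in either direction.

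A set of 281 DEGs was called in each of the 6 fits that leave out 1 IL22 library, in the same direction. The set held 185 up-regulated and 96 down-regulated genes. Their median log2 FC was 2.11 for the up-regulated genes, with the middle part of the genes between 1.46 and 3.54, and -1.43 for the down-regulated genes (-1.76 to -1.16). Of the up-regulated genes, 100 (54.1%) exceeded a log2 FC of 2 and 58 (31.4%) exceeded 3, while 15 of the down-regulated genes (15.6%) were beyond -2 and 1 was beyond -3. At an adjusted p of 0.01 in each fit, 28 genes stayed in the set, 25 up-regulated and 3 down-regulated. The set was chosen by these fits, so its sizes are a description and carry no test.

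The 4 IDs below lead this set by size of change, leaving aside IDs examined earlier. Weakly expressed IDs (mean log2 CPM under 3) and IDs with overlapping groups were passed over. Neither name nor role is given for them. Os05g0542500 was close to silent in control leaves of IL22, at 0.146, 0.0802 and 8.34 CPM (3, 1 and 128 counts) in replicates 1, 2 and 3. It rose to 573, 743 and 145 CPM in the salt libraries. The lowest salt library was above the highest control, and control replicate 3 and salt replicate 3 lay nearest to each other. The log2 FC was 7.42 (SE 1.41, edgeR adjusted p = 0.0104), and the mean went from 2.856 ± 4.75 CPM to 487.2 ± 308 CPM (SD, n = 3). It was 11.89 without control replicate 3, the control with 128 counts, 6.8 without control replicate 1 and 11.63 with replicate 1 as the only control. In OLESA, the ID had 0.204, 5.99 and 0.502 CPM in control and 175, 486 and 1080 CPM in salt, so the same separation of conditions was seen in the parent. The responses of the lines differed by -0.66 on the log2 scale (SE 1.68, adjusted p = 0.84 for the interaction, 0.369 to 0.982 over the alternatives).

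Os05g0373900 was low but clearly detected in control leaves, at 1.8, 2.97 and 2.48 CPM. In salt it reached 77.3, 70.5 and 20.1 CPM. Salt replicate 3 was again the lowest of the treated libraries and still above all controls. The mean rose from 2.417 ± 0.584 to 55.99 ± 31.3 CPM (SD, n = 3), a log2 FC of 4.55 (SE 0.5, edgeR adjusted p = 0.000807), and 4.37 without control replicate 1. OLESA had 2.38, 4.49 and 3.21 CPM in control and 47.9, 25 and 52.2 CPM in salt, a log2 FC of 3.64 (SE 0.47, edgeR adjusted p = 0.000774). The interaction of 0.92 (SE 0.64) missed the threshold, with an adjusted p of 0.393 (0.148 to 0.751 over the alternatives).

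Os04g0561500 fell in salt. Its controls had 91.3, 74 and 27.8 CPM and its salt libraries 8.68, 4.06 and 5.31 CPM. Control replicate 3 was the lowest control, and every control was above every salt library. The mean of 64.35 ± 32.8 CPM went to 6.016 ± 2.39 CPM (SD, n = 3), a log2 FC of -3.4 (SE 0.64, edgeR adjusted p = 0.00983), and -3.06 without control replicate 1. OLESA ranged more widely, with 40.7, 131 and 327 CPM in control and 35.9, 29.2 and 30.8 CPM in salt. Its log2 FC was -2.38 (SE 0.6, edgeR adjusted p = 0.0157). The interaction of -1.02 (SE 0.83) missed the threshold, with an edgeR adjusted p of 0.465 (lowest 0.145 over the alternatives).

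Os03g0782200 also fell in salt, and it is the ID of the 4 that lost its call against control replicate 1 alone. Control replicates 2 and 3 had 329 and 351 CPM, and replicate 1 had 82.2 CPM. The salt libraries had 41.6, 47 and 25.7 CPM, all below replicate 1. The log2 FC was -2.73 (SE 0.5, edgeR adjusted p = 0.00829), and -3.15 without replicate 1 (adjusted p = 0.000865). Against replicate 1 as the only control it was -1.11, with an adjusted p of 0.278. OLESA had 145, 62.8 and 85.1 CPM in control and 123, 78.3 and 60 CPM in salt, and these groups overlapped (log2 FC -0.17, SE 0.47, edgeR adjusted p = 0.818). Control replicate 1 of IL22 lay within the range of the OLESA controls, and replicates 2 and 3 lay above all OLESA libraries.

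**Figure D3:**
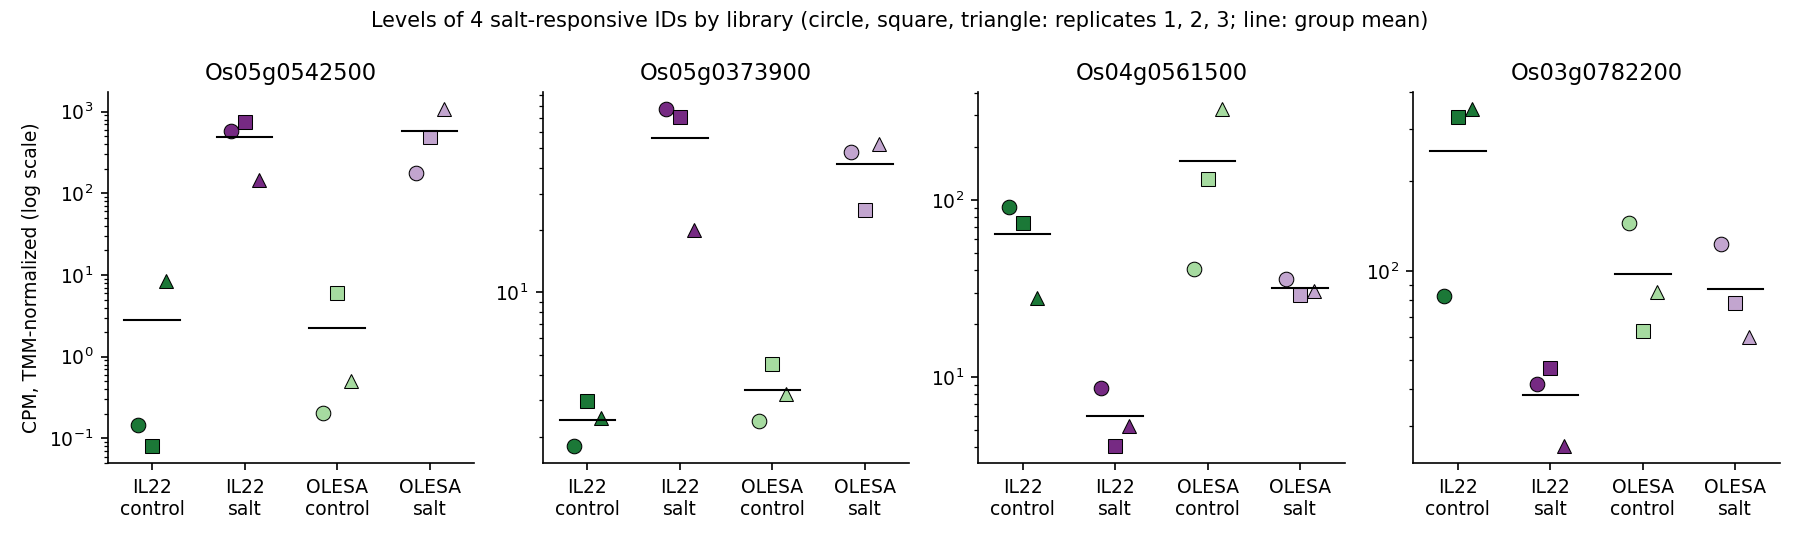
Levels of the 4 IDs in CPM (normalized by TMM, log axis) by group, where each point is 1 library, shapes mark the replicate number and lines mark the group means (n = 3). In IL22 every salt library of the first pair of IDs lies above every control and every salt library of the second pair below, and for Os03g0782200 control replicate 1 (82.2 CPM) lies under the other controls (329 and 351 CPM).

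The DEGs and the genes gained without control replicate 1 were compared by the levels of each library. Each library was placed gene by gene on a scale that is 0 at the mean of IL22 control replicates 2 and 3 and 1 at the mean of the IL22 salt libraries, in log2 CPM. For the 281 DEGs called in every fit, the median place of control replicate 1 was 0.02. For the other 793 DEGs it was 0.15. A further 2080 of the 20760 features were no DEGs in edgeR's test with all libraries and became DEGs when replicate 1 was left out, 759 of them up-regulated and 1321 down-regulated. For those, the median place of replicate 1 was 0.99 (0.72 and 1.3 at the quartiles). The choice of the sets fixes the place of replicate 1 in large part, so these values are a description. The OLESA libraries entered the fits that chose the sets, though not the contrast. Their place is read on the scale that the chosen genes set. For the 2080 genes, the OLESA controls stood at 0.81, 1.02 and 0.91 and the OLESA salt libraries at 0.31, 0.32 and 0.82. In these genes the OLESA controls were on the side of IL22 control replicate 1 and of the IL22 salt libraries. Choosing genes by the levels of IL22 control replicates 2 and 3 sets this side in part. For the 281 genes, the OLESA controls stood at 0.08, 0.15 and 0.13 and the OLESA salt libraries at 0.62, 0.69 and 0.91.

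The 2080 genes gained without replicate 1 were also compared with the salt response of OLESA. Salt up-regulated 11.7% and down-regulated 9.89% of all tested features in OLESA. Of the 759 gained genes that rose in IL22, OLESA up-regulated 55 (7.25%) and down-regulated 65 (8.56%). Of the 1321 gained genes that fell in IL22, OLESA down-regulated 53 (4.01%) and up-regulated 371 (28.1%). Calls against replicate 1 alone are not read for the 2080 genes. These genes were chosen by leaving replicate 1 out, which fixes such calls in large part.

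**Figure D4:**
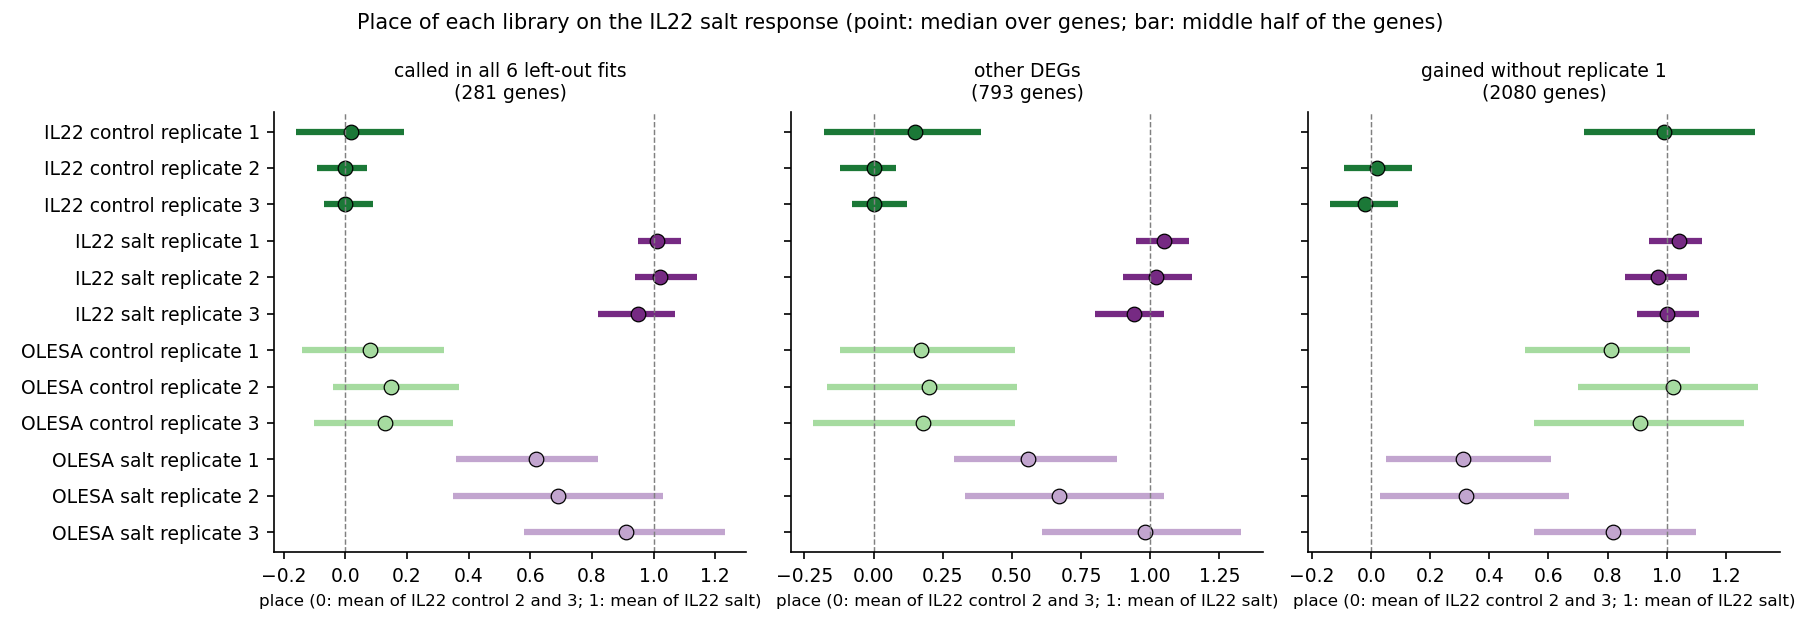
Place of each library between the IL22 controls 2 and 3 (0) and the IL22 salt libraries (1), a scale without units, for the genes called in all fits, the other DEGs and the genes gained without replicate 1 (points are medians over genes, bars the range between quartiles). Control replicate 1 is at 0.02, 0.15 and 0.99 in the 3 sets, which the choice of the sets fixes in large part, and the OLESA controls are at 0.81, 1.02 and 0.91 in the last set.

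The DEGs were spread over all chromosomes. The share of tested genes called as DEGs ran from 3.28% on Chromosome 12 (37 of 1128) to 5.91% on Chromosome 11 (64 of 1083), around the 5.17% of all tested features. Chromosomes 1 and 3, which carry the large *indica* segments, had 168 DEGs of 3020 tested genes (5.56%) and 157 of 2758 (5.69%). Up-regulated DEGs outnumbered down-regulated DEGs on both, at 105 against 63 and at 97 against 60, as they did among all DEGs (607 against 467). The reverse held on Chromosome 2, with 63 up-regulated and 66 down-regulated, and on Chromosome 11, with 28 and 36. For the 281 genes, the share was highest on Chromosome 1 (57 genes, 1.89%) and lowest on Chromosome 12 (8 genes, 0.709%), beside 1.35% of all tested features. These shares were not compared by a test. Without control replicate 1 the shares of DEGs lay between 13.4% and 16.6% over the chromosomes. Among all DEGs of that fit, down-regulated ones outnumbered up-regulated ones, at 1770 against 1355. The *indica* segments themselves could not be delimited, because no coordinates of the build of the files were used here. A gene next to a DEG along the order of tested IDs was a DEG of the same direction for 69 of the 607 up-regulated DEGs (11.4%), while 5.76% of all features with a locus ID lay next to an up-regulated DEG. For the 467 down-regulated DEGs it was 34 (7.28%), against 4.45% of all such features. Without replicate 1 the values were 17.4% against 12.3% for up-regulated and 18.6% against 15.9% for down-regulated DEGs. No test was made of these differences.

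Strongly expressed genes were called more often and moved less. Among features with a mean log2 CPM under 1, 3.23% were DEGs, with 92 up-regulated and 34 down-regulated. The share rose over the classes to 8.89% above a mean log2 CPM of 7, where 40 genes rose and 54 fell. The median log2 FC of up-regulated DEGs went from 3.71 in the lowest class to 1.01 in the highest, and that of down-regulated DEGs from -2.67 to -1. Without control replicate 1 the share of DEGs went from 5.94% to 23.9% over the same classes. A small change can pass the test only in a gene with many counts, so these values follow the precision of the counts in part.

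The most abundant leaf transcripts took a smaller part of the counts in salt. The 100 features with the highest level in OLESA, which were chosen without the IL22 libraries, held 31.8%, 32% and 33.7% of the counts of IL22 control replicates 1, 2 and 3. In the salt libraries they held 27.4%, 30.4% and 28.7%. The groups did not overlap, with means of 32.5% ± 1.05 in control and 28.8% ± 1.48 in salt (SD, n = 3), and the two-sided exact permutation p was 0.1, the smallest that 3 against 3 libraries can give. The share of replicate 1 was the lowest of the controls and above all salt libraries. Of these features, 2 were up-regulated and 4 were down-regulated DEGs, a share close to the 5.17% of all tested features. Their median log2 FC was -0.12, against -0.03 for all tested features, and 66 of 100 had a value below 0. Without replicate 1, 6 rose and 11 fell, where 14.7% of all features were DEGs.

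With all libraries, the DEGs up-regulated in IL22 were for the most part also up-regulated in OLESA, while most of the down-regulated ones had no call there. The responses of the lines share no library. Of the 185 up-regulated genes of the set called in every fit, 131 (70.8%) were up-regulated in OLESA, 6 were down-regulated and 48 had no call, beside the 11.7% of all tested features up-regulated there. Their median log2 FC was 2.11 in IL22 and 1.65 in OLESA. Of the 96 down-regulated genes, 39 (40.6%) were down-regulated in OLESA, 1 was up-regulated and 56 had no call, beside the 9.89% of all features. Their median log2 FC was -1.43 in IL22 and -0.47 in OLESA. Since the genes were chosen for their values in IL22, a smaller value in OLESA follows in part from that choice. Among all DEGs, 387 of the 607 up-regulated genes were up-regulated in OLESA and 11 down-regulated, and 167 of the 467 down-regulated genes were down-regulated in OLESA and 20 up-regulated. Without single libraries of either line, the share of the 185 genes up-regulated in OLESA was between 61.6% and 72.4%. These values hold for the DEGs of all libraries. Without IL22 control replicate 1, 451 of the 1355 up-regulated DEGs (33.3%) were up-regulated in OLESA and 166 (12.3%) down-regulated, where OLESA up-regulated 14.8% and down-regulated 12.7% of the features in that fit. Of the 1770 down-regulated DEGs, 235 (13.3%) were down-regulated and 641 (36.2%) up-regulated in OLESA.

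**Figure D5:**
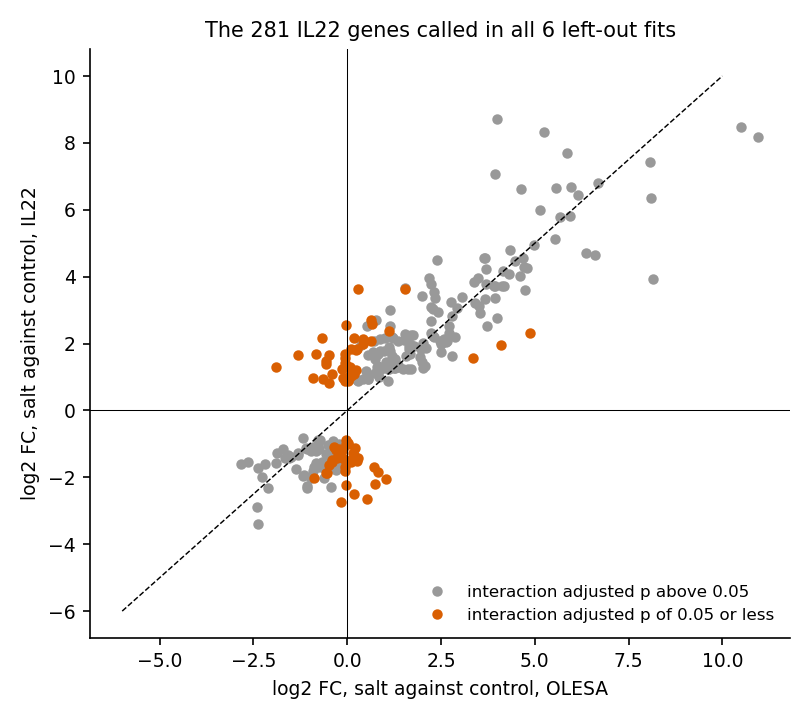
Log2 FC of salt against control in IL22 (vertical axis) and in OLESA (horizontal axis) for the 281 genes called in all 6 fits, where each point is a gene, the dashed line marks equal values and orange points pass the interaction test at an adjusted p of 0.05. Of the 78 orange points, 19 up-regulated and 17 down-regulated in IL22 have the opposite sign in OLESA. No call was made in OLESA for 30 of the up-regulated and 35 of the down-regulated orange points.

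Whether the response differed between the lines was tested by the interaction of line and salt. With all libraries, 1036 features passed at an adjusted p of 0.05 or less (4.99% of those tested), and 191 of them were IL22 DEGs. In 170 of the 191 genes the change was larger in IL22, which follows in part from choosing genes that are DEGs in IL22. In 141 the log2 FC of the lines had opposite signs. Of the 191 genes, 146 had no call in OLESA, so many of these signs belong to uncalled values. Of the 281 genes called in every fit, 78 passed, 41 of the up-regulated and 37 of the down-regulated. This count rested on single libraries of both lines. Without IL22 control replicate 1, 1819 IL22 DEGs passed. Without IL22 control replicates 2 and 3, 11 and 18 passed, and without IL22 salt replicates 1, 2 and 3, 11, 14 and 17 passed. The number over all tested features moved as well. It was 4949 of 21213 without IL22 control replicate 1, and 19 to 33 without another IL22 library. Without OLESA control replicates 1, 2 and 3, the counts were 145, 17 and 22, and without OLESA salt replicates 1, 2 and 3, they were 22, 29 and 325. With IL22 control replicate 1 as the only control, 0 IL22 DEGs passed by edgeR, of 285, while with all libraries DESeq2 gave 554.

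A small group of genes kept a difference between the lines whichever library was left out. Of all tested features, 18 passed the interaction test in each of the 12 fits that leave out 1 library, a count made after the values were seen. Of these, 11 belonged to the 281 genes called in every fit, and all 11 were up-regulated in IL22, with log2 FC from 0.81 to 3.64 and a median of 1.67. In OLESA, none of the 11 was up-regulated, 5 were down-regulated and 6 had no call, with log2 FC from -1.91 to 0.28. Over all tested features, OLESA up-regulated 11.7% and down-regulated 9.89%. Choosing genes that rose in IL22 and passed the interaction test fixes low OLESA values in large part. Of all 18 features, OLESA up-regulated 4 and down-regulated 8, and 6 had no call. Chromosome 1 held 1 of the 11, Chromosome 3 held 2 and other chromosomes held 8. Of the 20760 tested features, Chromosome 1 held 3020 and Chromosome 3 held 2758. With 11 genes, these counts do not set the introgressed chromosomes apart, and no test was made.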

How the data were processed

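Leaf RNA of IL22 and OLESA was sequenced in control and salt conditions. The authors deposited unnormalized fragment counts for each feature and library. According to the study's methods and the submitters' processing notes, libraries were demultiplexed with bcl2fastq 2.20, adapters were treated with cutadapt 1.11, STAR 2.5.2b served for alignment and featureCounts 1.5.1 for counting. The processing notes name the genome build IRGSP-1.0. The sources used here do not give the handling of fragments that match more than 1 gene. Genes with near-identical copies or overlapping neighbours are therefore uncertain.

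The analysis used edgeR 4.0.16 under R 4.3.3. Of 36844 features, 1177 lacked a rice locus ID and 6937 were without any count. Library totals ran from 11505396 to 23578477. filterByExpr (minimum count 10, minimum total 15) kept 20760 features. The TMM factors and the quasi-likelihood fit used 12 libraries and estimated 1 mean for each of the groups. Adjustment of p-values followed Benjamini-Hochberg over all tested features. The contrasts were salt against control in IL22, the same in OLESA, and the interaction. DEGs were called at an adjusted p up to 0.05 with a log2 FC beyond 0.5. Standard errors were derived from the F statistic. Log2 CPM used a prior count of 2. The scripts were tested on simulated data. Alternatives were DESeq2 1.42.0, limma 3.58.1 (voom with quality weights), edgeR's likelihood ratio test, RLE and upper quartile scaling, other filters, IL22 libraries alone, a replicate block, and fits without each library. DESeq2 adjusted p-values of NA were kept as NA, and such features were counted as not called. Replicates are pools of different plants, and no source says whether they shared a tank, so the p-values measure the spread between these pools.

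The comparison, the lists and the rules were chosen with earlier results of these data known. Named IDs are the first 2 up-regulated and the first 2 down-regulated by log2 FC among DEGs called in all 6 fits that leave out 1 IL22 library, with mean log2 CPM not under 3 and groups that do not overlap, passing over IDs examined earlier. The planned lists of pathway genes, leaf and root markers and promoter sequences were not used here, because the gene reference (assembly ASM3414082v1) matched 1 ID.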

Additional observations from a re-analysis of the deposited data

Results flagged for a closer look

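Of the 1074 IL22 DEGs, 191 passed the interaction test, which compares the response to salt with that of OLESA (edgeR, adjusted p of 0.05 or less). Without single libraries this number went from 11 to 1819, the highest without IL22 control replicate 1. In that fit 4949 of all 21213 tested features passed, against 1036 of 20760 with all libraries.

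The response of Os03g0782200 also differed between the lines, by an interaction of -2.56 on the log2 scale (SE 0.67, edgeR adjusted p = 0.0476). It was lower in salt in 3 of 3 IL22 libraries and did not separate in OLESA. Its adjusted p was 0.000695 to 0.724 over 21 alternatives, and 9 of them were at 0.05 or less.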

How the results depend on the processing

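The number of IL22 DEGs (1074, with 607 up-regulated and 467 down-regulated) moved by less than 1.5 times with RLE or upper quartile scaling, with no filter or a filter of 1 CPM, and with the IL22 libraries alone. It was 2020 with DESeq2 (1018 up, 1002 down), 1935 with the likelihood ratio test (974 and 961) and 4554 with voom quality weights (1938 and 2616), which gave IL22 control replicate 1 the lowest weight of 12 (0.208). Voom called 6143 features at an unadjusted p. Without 1 library at a time, the number ran from 348 to 3125, with 238 to 1355 up, 110 to 1770 down, and 2897 to 5727 at an unadjusted p. With IL22 libraries alone and without control replicate 1, 4879 were called (2204 and 2675), and 6269 at an unadjusted p. With replicate 1 as the only control, chosen after the data were examined, 285 were called (134 and 151), where the lone library is assumed to vary like the others. The 191 DEGs that passed the interaction became 294 with no filter, 554 with DESeq2, 503 with the likelihood ratio test, 2554 with voom, 11 to 1819 without 1 library, and 0 with replicate 1 as the only control. The interaction could not be fitted in IL22 libraries alone. At an adjusted p of 0.01, the set of 281 genes became 28. For 3 named IDs all 23 alternatives kept direction and call. Os03g0782200 lost its call in 1 of 23, at -1.11 with replicate 1 as the only control. The causes of these shifts were not tested.

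Same-numbered control and salt libraries of IL22 deviated from their group means with correlations of 0.11, -0.08 and -0.14. Of the 3 controls, 2 correlated best with another number. The deviations are from means of only 3 libraries, so these weak values cannot tell whether the numbers pair the samples. With the replicate block, 678 DEGs were called (422 up, 256 down), and 14 of them passed the interaction.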
